A study of Mus musculus with 21 samples.

Results

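Levels of 5 peripheral glia genes, Sox10, Cdh19, Mbp, Mal and Ngfr, were followed in subcutaneous mouse liver tumours under a kinase inhibitor, a checkpoint antibody, or both. The genes were taken by name from a list of Schwann cell and myelin genes, and every probe set annotated to one of them was used. Each gene had 1 probe set, so 5 of 22206 tested probe sets and 5 of 19505 named genes are described.

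The tumours were subcutaneous grafts of Hepa1-6, a mouse hepatoma line, in female C57BL/6J mice that were 5 to 6 weeks old at injection. When a tumour reached 200 mm3, its host was randomised to 1 of 4 arms. The combination arm (n = 5) received lenvatinib, an oral inhibitor of VEGF, FGF and other receptor kinases, at 10 mg/kg daily together with an antibody to mouse PD-1 (clone J43) at 10 mg/kg every 3 days for 5 doses. The anti-PD1 arm (n = 5) and the lenvatinib arm (n = 5) received 1 of these agents at the same dose, and the placebo arm (n = 6) received drug vehicle with polyclonal IgG. Tissue was taken on day 13 in every arm. Mice on lenvatinib had been dosed 2 hours before, and mice on the antibody 1 day before. RNA came from 30 mg of bulk tumour, and each of the 21 mice gave 1 array. Hepa1-6 is a single transplanted line grown outside the liver, and the labels do not say what host skin, fat or nerve each piece held.

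Schwann cells are the glia of peripheral nerves. They come from the neural crest under the transcription factor Sox10, survive on axonal neuregulin, and either wrap an axon in myelin or stay unmyelinated around small fibres. Mbp encodes myelin basic protein, which compacts the myelin membrane. Mal encodes a small lipid raft protein that also sorts proteins to the apical surface of epithelial cells and is found in T cells. Cdh19 encodes a cadherin of Schwann cell precursors, and Ngfr encodes the low-affinity neurotrophin receptor p75, which marks immature and denervated Schwann cells as well as several stromal and epithelial cells.

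Values are log2 signals after robust multi-array averaging (RMA) by the authors, so a difference of 1 is a 2-fold ratio. Array medians lay between 5.33 and 5.49. The arrays also carry 5222 negative-control rows, whose median per array was 3.78 to 4.31 and whose 95th percentile was 7.04 to 7.78. Of all tested probe sets, 19.4% had a mean over the 21 mice above the 95th percentile of the mean control rows and 26.2% had a mean below their median. The 18 hybridization control rows were brighter on 6 arrays (combination mouse 1, anti-PD1 mouse 1, lenvatinib mice 1 and 2, placebo mice 4 and 6) than on the other 15.

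Mal was the 1 gene of the 5 whose signal exceeded the negative controls' 95th percentile on any array, and it did so on 12 of 21. Those 12 were 1 of 5 combination, 3 of 5 anti-PD1, 4 of 5 lenvatinib and 4 of 6 placebo tumours. Sox10, Mbp and Ngfr passed the controls' 95th percentile on 0 of 21 arrays. Sox10 and Ngfr lay above the controls' median on all 21 arrays and Mbp on 18, the exceptions being 3 combination tumours. Cdh19 lay below the controls' median on all arrays but 2, those of anti-PD1 mouse 2 and placebo mouse 1. Depending on the array, between 9.1% and 79.2% of negative-control rows were dimmer than Cdh19, and between 85.9% and 98.9% were dimmer than Mal. In bulk RNA, fewer cells of a type and less RNA per cell cannot be told apart.

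**Figure D1:**
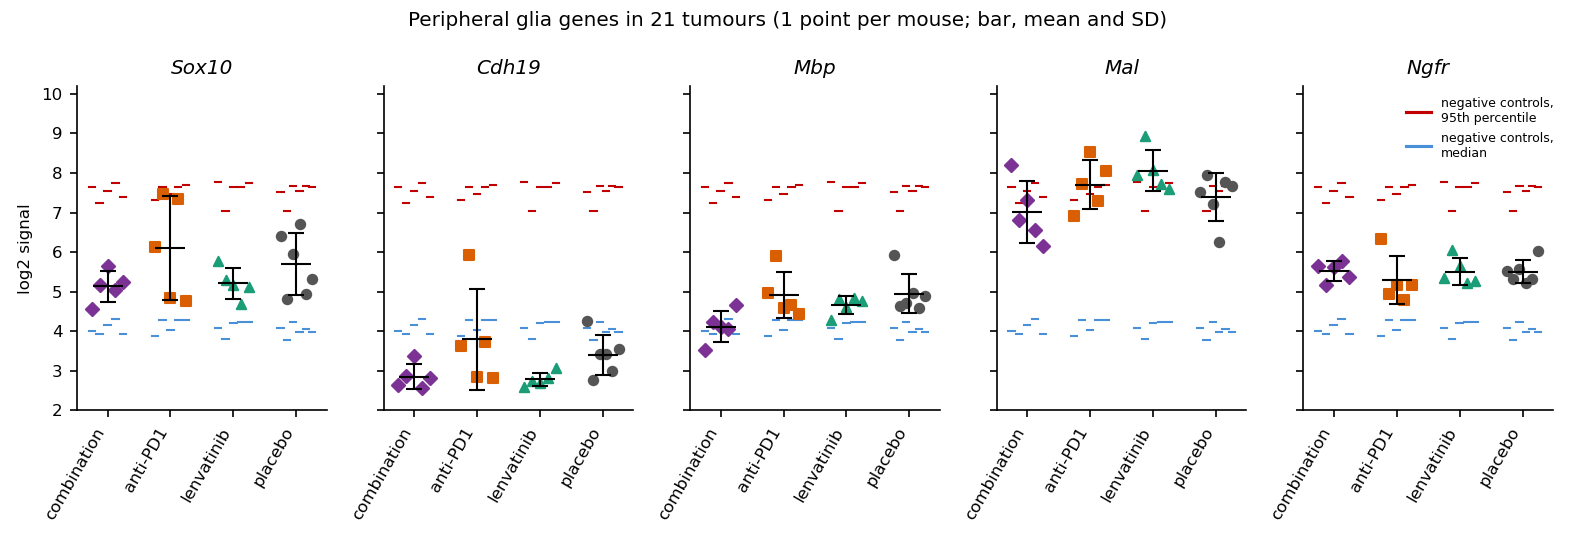
Log2 signal (y axis) of each gene in each of the 21 tumours by arm (x axis), 1 point per mouse, with the arm mean and SD as bars and each array's negative-control median (blue dashes) and 95th percentile (red dashes). Mal crosses the 95th percentile on 12 arrays, the other 4 genes on 0, and Cdh19 lies below the control median except on 2 arrays.

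Sox10, the lineage factor, spread most widely with anti-PD1 alone. It stood at 4.57, 5.17, 5.66, 5.03 and 5.23 in combination mice 1 to 5 and at 6.13, 7.46, 4.84, 7.35 and 4.75 in anti-PD1 mice 1 to 5. The lenvatinib mice had Sox10 signals of 5.78, 5.30, 5.16, 4.69 and 5.11, and the 6 placebo mice ran from 4.81 over a median of 5.63 to 6.72. The 2 brightest tumours, anti-PD1 mice 2 and 4, lay above every other tumour, while anti-PD1 mice 1 and 3 lay inside the placebo range and mouse 5 just under it, and the arms overlapped. Sox10 means were 5.13 ± 0.39 with the combination, 6.11 ± 1.30 with anti-PD1, 5.21 ± 0.39 with lenvatinib and 5.69 ± 0.79 with placebo (SD).

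Cdh19, the precursor cadherin, had its highest signals in anti-PD1 and placebo tumours. The combination mice had 2.64, 2.87, 3.37, 2.57 and 2.81, and the anti-PD1 mice 3.62, 5.94, 2.84, 3.73 and 2.83. Lenvatinib mice had Cdh19 signals of 2.60, 2.73, 2.69, 2.82 and 3.06, and placebo mice ran from 2.78 over a median of 3.42 to 4.25. Anti-PD1 mouse 2 and placebo mouse 1 were the highest, and every combination and lenvatinib tumour lay below the placebo median, with the arms overlapping. Cdh19 means were 2.85 ± 0.32 with the combination, 3.79 ± 1.27 with anti-PD1, 2.78 ± 0.17 with lenvatinib and 3.40 ± 0.51 with placebo (SD). Of these 21 values, 19 lay under the median of the negative controls on their own array.

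Mbp, the myelin gene, was dimmest with the combination. Combination mice had 3.53, 4.24, 4.11, 4.04 and 4.65, and anti-PD1 mice 4.97, 5.89, 4.59, 4.66 and 4.44. Lenvatinib mice had Mbp signals of 4.29, 4.80, 4.62, 4.84 and 4.78, and placebo mice ran from 4.58 over a median of 4.81 to 5.92. Of the 5 combination tumours, 4 lay below all placebo tumours, and the fifth, mouse 5, lay inside the placebo range. Anti-PD1 mouse 2 and placebo mouse 1 were again the highest. Mbp means were 4.12 ± 0.40 with the combination, 4.91 ± 0.58 with anti-PD1, 4.67 ± 0.23 with lenvatinib and 4.95 ± 0.50 with placebo (SD).

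Mal was brightest with lenvatinib alone and dimmest with the combination. Combination mice had 8.21, 6.82, 7.32, 6.57 and 6.16, and anti-PD1 mice 6.92, 7.73, 8.53, 7.30 and 8.04. Lenvatinib mice had Mal signals of 7.94, 8.94, 8.06, 7.73 and 7.61, and placebo mice ran from 6.25 over a median of 7.60 to 7.95. All 5 lenvatinib tumours lay above the placebo mean, and 4 of 5 combination tumours were dimmer than any lenvatinib tumour, but combination mouse 1 was brighter than 4 of them. Mal means were 7.01 ± 0.79 with the combination, 7.70 ± 0.63 with anti-PD1, 8.06 ± 0.52 with lenvatinib and 7.40 ± 0.61 with placebo (SD).

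Ngfr, the neurotrophin receptor, had arm means between 5.29 and 5.52. Combination mice had 5.65, 5.16, 5.63, 5.78 and 5.37, and anti-PD1 mice 6.34, 4.95, 5.17, 4.80 and 5.17. Lenvatinib mice had Ngfr signals of 5.34, 6.06, 5.64, 5.22 and 5.28, and placebo mice ran from 5.23 over a median of 5.42 to 6.03. Of the anti-PD1 tumours, 4 lay below every placebo tumour and mouse 1 above every one. Ngfr means were 5.52 ± 0.25 with the combination, 5.29 ± 0.61 with anti-PD1, 5.51 ± 0.35 with lenvatinib and 5.50 ± 0.29 with placebo (SD).

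The arms were compared with limma over all tested probe sets, with Benjamini-Hochberg adjustment. No probe set, of the 5 or of the rest, passed an adjusted p of 0.05 in the F test over the 4 arms or in any of 8 contrasts (0.0% called in each). Unadjusted, the F test had p under 0.05 for 5.69% of probe sets and for 1 of the 5, Mbp. The F test's adjusted p was 0.801 for Mbp, 0.895 for Mal and Cdh19, 0.964 for Sox10 and 0.9997 for Ngfr. None of the 5 had mice fully separated between 2 arms. Of all probe sets, 0.0766% were higher and 0.189% lower without overlap in combination than placebo tumours, 0.288% and 0.302% in lenvatinib than placebo, 0.0901% and 0.374% in anti-PD1 than placebo, 0.405% and 0.482% in combination than lenvatinib, and 0.527% and 0.401% in combination than anti-PD1 tumours.

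**Figure D2:**
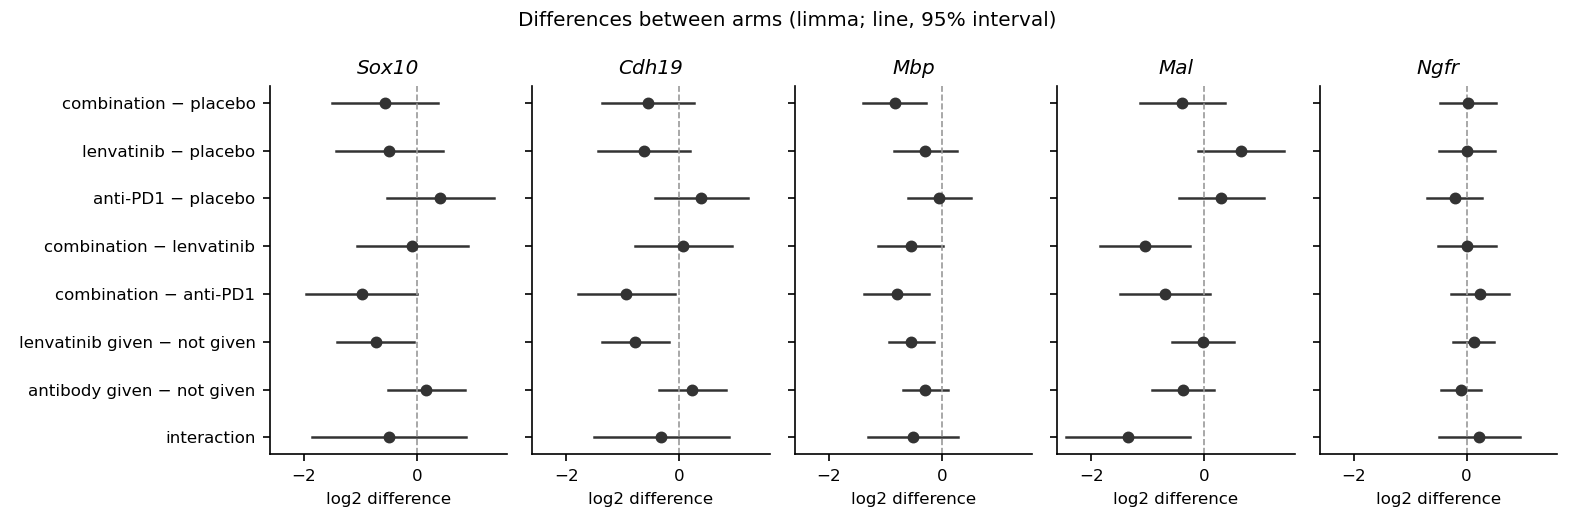
Log2 difference (x axis) of each gene in 8 contrasts (y axis), with points for limma estimates and lines for 95% intervals. The Mbp interval for the combination minus placebo runs from -1.39 to -0.28 and the Mal interval for the combination minus lenvatinib from -1.84 to -0.25, while every Ngfr interval spans 0.

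With the combination set against placebo, Mbp stood 0.560 times as high in linear terms, a log2 difference of -0.84 ± 0.27 (SE; limma adjusted p = 0.9998). It was the 1 gene of the 5 with an unadjusted p under 0.05 and a lower signal, as were 1.30% of all probe sets, and 0 of the 5 had a higher one, against 1.01%. Sox10 differed by -0.56 ± 0.45, Cdh19 by -0.55 ± 0.39, Mal by -0.39 ± 0.37 and Ngfr by 0.02 ± 0.24 (SE; limma adjusted p = 0.9998 for each). So 4 of 5 estimates lay below 0, against 50.7% of all probe sets. Without anti-PD1 mouse 2 and placebo mouse 1, the Mbp difference was -0.64 and the Cdh19 difference -0.38.

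With lenvatinib alone set against placebo, Mal had the largest estimate of the 5, 0.66 ± 0.37 (SE; limma adjusted p = 0.703). Cdh19 differed by -0.62 ± 0.39, Sox10 by -0.49 ± 0.45, Mbp by -0.29 ± 0.27 and Ngfr by 0.01 ± 0.24 (SE), with limma adjusted p between 0.730 and 0.994. Unadjusted p under 0.05 came for 0 of the 5, against 2.92% of probe sets higher and 4.05% lower. Estimates below 0 numbered 3 of 5, against 50.9% overall. The hepatoma list, of liver cell genes such as Alb and Afp, moved with Mal here: 9 of 9 measured genes lay above placebo (median 0.61), 3 with an unadjusted p under 0.05, and the list's mean level ran from 7.89 to 8.71 in lenvatinib and from 6.07 to 8.53 in placebo tumours. In the same contrast the adipocyte list had 8 of 8 genes below placebo (median -1.83), 5 with an unadjusted p under 0.05, the fibroblast list 8 of 8 (median -1.39), 3 with an unadjusted p under 0.05, and the T cell list 8 of 8 (median -0.49), 0 with one. The part of these lists in the values of the 5 genes was not tested. Without placebo mouse 1 and anti-PD1 mouse 2, the Mbp difference shrank to -0.09.

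With anti-PD1 alone set against placebo, Sox10 differed by 0.41 ± 0.45, Cdh19 by 0.39 ± 0.39, Mal by 0.31 ± 0.37, Ngfr by -0.21 ± 0.24 and Mbp by -0.04 ± 0.27 (SE; limma adjusted p = 1.0 for each). None of the 5 had an unadjusted p under 0.05, against 1.38% of probe sets higher and 2.68% lower, and 2 of 5 estimates lay below 0, against 50.4%. Without anti-PD1 mouse 2 and placebo mouse 1, the Sox10 difference was 0.22 and the Cdh19 difference 0.02.

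The combination was next set against each agent alone. Against lenvatinib, Mal had a log2 difference of -1.04 ± 0.38, a ratio of 0.485 (SE; limma adjusted p = 0.780). It was the 1 gene of the 5 with an unadjusted p under 0.05 and a lower signal, against 2.53% of probe sets, and 0 of the 5 had a higher one, against 3.87%. Estimates below 0 numbered 3 of 5, against 51.2%. The Mal difference passed the threshold in 1 alternative, where limma weighted arrays by their quality (limma adjusted p = 0.0481, against 0.133 or more with any 1 mouse left out). Mbp differed by -0.55 ± 0.28 (95% interval -1.12 to 0.03; limma adjusted p = 0.783), while Sox10, Cdh19 and Ngfr differed by -0.08 ± 0.47, 0.07 ± 0.41 and 0.01 ± 0.25 (SE).

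Against anti-PD1, the combination tumours had lower estimates for 4 of 5 genes, against 51.9% of probe sets. Sox10 differed by -0.98 ± 0.47, Cdh19 by -0.94 ± 0.41, Mbp by -0.79 ± 0.28 and Mal by -0.69 ± 0.38 (SE; limma adjusted p = 0.665, 0.567, 0.332 and 0.775). Ngfr differed by 0.23 ± 0.25. Mbp and Cdh19 had an unadjusted p under 0.05 and a lower signal, 2 of 5, against 2.79% of probe sets, and 0 of 5 had a higher one, against 4.85%. Without anti-PD1 mouse 2 and placebo mouse 1, these differences were -0.64 for Sox10, -0.40 for Cdh19 and -0.55 for Mbp. Mbp then kept an unadjusted p under 0.05 and Cdh19 did not (limma unadjusted p = 0.0132 and 0.0982). Between the same arms, the T cell list had 8 of 8 measured genes higher (median 1.76), all 8 with an unadjusted p under 0.05, the adipocyte list 8 of 8 lower (median -1.17), 0 with one, the keratinocyte list 9 of 10 lower (median -0.37), 2 with one, and the endothelial list 7 of 8 lower (median -0.55), 0 with one. Their part in the differences of the 5 genes was not tested. This contrast shares the combination arm with the lenvatinib and placebo contrasts above, so the estimates are not independent.

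Pooled over the antibody, tumours of mice given lenvatinib differed from those not given it by -0.78 ± 0.29 for Cdh19, -0.73 ± 0.33 for Sox10 and -0.54 ± 0.19 for Mbp (SE; limma adjusted p = 0.829 for each). These 3 of 5 had an unadjusted p under 0.05 and a lower signal, against 4.05% of all probe sets, and 0 of 5 had a higher one, against 1.83%. Estimates below 0 numbered 4 of 5, against 48.7%. Mal (-0.02 ± 0.26) and Ngfr (0.12 ± 0.17) had estimates near 0. Leaving out anti-PD1 mouse 2 and placebo mouse 1 brought the differences to -0.43 for Cdh19, -0.49 for Sox10 and -0.32 for Mbp. Cdh19 and Mbp then kept an unadjusted p under 0.05 (limma unadjusted p = 0.0144 and 0.0309) and Sox10 did not (limma unadjusted p = 0.136). Pooled over lenvatinib, tumours given the antibody differed by between -0.37 (Mal) and 0.23 (Cdh19), with limma adjusted p = 1.0 for each and 0 of 5 at an unadjusted p under 0.05, against 0.788% of probe sets higher and 0.730% lower, and 3 of 5 estimates lay below 0, against 51.2%.

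The adipocyte list, one of the marker lists for other cells a subcutaneous tumour may hold, moved with the lenvatinib contrast. Its 8 measured genes, out of 9 listed, were all below 0, with a median difference of -1.80, and 7 of 8 had an unadjusted p under 0.05. All 8 exceeded the negative-control 95th percentile on some array. The mean level of the list ranged from 4.92 to 8.82 in combination, 5.08 to 10.7 in anti-PD1, 4.82 to 7.74 in lenvatinib and 6.12 to 10.3 in placebo tumours. The fibroblast list had 8 of 8 measured genes below 0 (median -0.53), 2 with an unadjusted p under 0.05. The melanocyte list, whose cells also express Sox10, had 6 of 8 genes below 0 (median -0.03), 1 of them with an unadjusted p under 0.05, Ednrb at -0.80 ± 0.34 (SE), and its mean level ran from 4.28 to 4.87 in combination, 4.35 to 5.05 in anti-PD1, 4.38 to 4.76 in lenvatinib and 4.28 to 5.13 in placebo tumours. The keratinocyte list had 9 of 10 genes below 0 (median -0.29), 2 with an unadjusted p under 0.05, Krt14 standing at -1.53 ± 0.43 (SE). The T cell list had 8 of 8 measured genes above 0 (median 0.59), 5 with an unadjusted p under 0.05. Lists of Schwann cell genes were counted too. The growth signal list had 8 of 9 genes below 0 (median -0.25), 3 with an unadjusted p under 0.05. Immature Schwann genes had 12 of 15 below 0 (median -0.14), 2 with one. Myelin genes had 9 of 13 below 0 (median -0.08) and transcription factors 3 of 8 (median 0.16), each with 1 such gene below and 1 above 0. Of all probe sets, 48.7% lay below 0. The part of other cell types in the Sox10, Cdh19 and Mbp differences between arms was not tested.

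The interaction asked whether the combination departed from the sum of both single-agent differences. For Mal it did so by -1.35 ± 0.53 (SE; 95% interval -2.45 to -0.25; limma adjusted p = 0.407), the 1 gene of the 5 with an unadjusted p under 0.05 and a value below 0, against 3.31% of probe sets (above 0: 0 of 5, against 5.70%). Estimates below 0 numbered 4 of 5, against 51.1%. In combination minus lenvatinib tumours and in the interaction, all 9 hepatoma genes lay below 0 (medians -0.63 and -0.89), and all 8 measured T cell genes of 10 listed lay above 0 (medians 1.10 and 2.24), 7 and 8 of them with an unadjusted p under 0.05. The mean level of the T cell list ran from 6.81 to 8.91 in combination, 5.14 to 7.01 in anti-PD1, 6.50 to 7.72 in lenvatinib and 7.06 to 7.79 in placebo tumours, and the part of either list in the Mal values was not tested. With array quality weights the Mal interaction was -1.52 (limma adjusted p = 0.0317). Over all other alternatives run, including each mouse left out in turn, it stayed above 0.05. Mbp, Sox10, Cdh19 and Ngfr had interactions of -0.51 ± 0.38, -0.49 ± 0.66, -0.31 ± 0.57 and 0.22 ± 0.34 (SE).

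Other genes of the Schwann cell programme were examined in lists, as counts in each direction. The peripheral myelin list had 13 genes matched to a named probe set. Pmp22, a membrane protein of compact myelin that many other cells also make, exceeded the control 95th percentile on 19 arrays, and the other 12 on 0. Mean signals of the myelin list were lower in combination than placebo tumours for 11 of 13 genes (median -0.12), lower with lenvatinib for 8 (median -0.16) and lower with anti-PD1 for 7 (median -0.04), while the median over all probe sets was within 0.01 of 0. Of all probe sets, 50.7%, 50.9% and 50.4% were lower in these contrasts. Pmp22 differed from placebo by -0.53 ± 0.59 with the combination, -1.24 ± 0.59 with lenvatinib and -0.25 ± 0.59 with anti-PD1 (SE). Pllp, a myelin protein like Mal in its membrane fold, differed from placebo by -0.11 ± 0.23 with the combination, 0.47 ± 0.23 with lenvatinib and 0.51 ± 0.23 with anti-PD1 (SE), and lay under the control 95th percentile on every array. The 2 genes above placebo with the combination were Cnp (0.31 ± 0.18) and Gal3st1 (0.24 ± 0.23), with Gjb1 at -0.09 ± 0.20 and Ncmap at -0.10 ± 0.20 (SE). For Cnp, Gal3st1, Gjb1 and Ncmap the differences were -0.17 ± 0.18, 0.60 ± 0.23, 0.40 ± 0.20 and -0.29 ± 0.20 with lenvatinib (SE). With anti-PD1 they were -0.13 ± 0.18, 0.11 ± 0.23, 0.24 ± 0.20 and 0.02 ± 0.20 (SE). With 12 of 13 matched myelin genes and 4 of the 5 genes never above that level, the 5 are called here by name and not taken as a measure of Schwann cells.

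Among immature and non-myelinating Schwann cell genes, 15 of 16 were matched, and 1 of these, Scn7a, passed the control 95th percentile, on 6 arrays. The sodium channel gene Scn7a ranged from 4.55 to 9.93 and differed from placebo by -0.89 ± 0.81 with the combination, -1.88 ± 0.81 with lenvatinib and -0.04 ± 0.81 with anti-PD1 (SE). Fabp7, L1cam, Gfra3 and Kcna1 differed from placebo by 0.30 ± 0.33, 0.26 ± 0.36, -0.38 ± 0.22 and -0.12 ± 0.20 with the combination (SE). With lenvatinib these differences were -0.26 ± 0.33, -0.53 ± 0.36, -0.54 ± 0.22 and -0.04 ± 0.20 (SE). With anti-PD1 they were -0.52 ± 0.33, -0.04 ± 0.36, -0.06 ± 0.22 and 0.36 ± 0.20 (SE). Signals of this list lay lower than placebo for 12 of 15 genes with the combination (median -0.19), 14 of 15 with lenvatinib (median -0.26) and 11 of 15 with anti-PD1 (median -0.06). Of all probe sets, 50.7%, 50.9% and 50.4% lay lower in these contrasts. None of the 15 genes passed the adjusted threshold.

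The growth signal list held 9 matched genes of 12. Sort1, which encodes sortilin, the partner of p75 for precursor neurotrophins, exceeded the control 95th percentile on all 21 arrays and differed from placebo by -0.59 ± 0.30 with the combination, -0.47 ± 0.30 with lenvatinib and 0.32 ± 0.30 with anti-PD1 (SE). Ntrk2, the BDNF receptor, ranged from 3.40 to 9.89 and differed by -0.73 ± 1.02 with the combination, -2.19 ± 1.02 with lenvatinib and 0.30 ± 1.02 with anti-PD1 (SE). Nrg1, the axonal growth factor for Schwann cells, differed by 0.30 ± 0.71 with the combination, 1.65 ± 0.71 with lenvatinib and 0.47 ± 0.71 with anti-PD1 (SE). Its receptor subunit Erbb2 differed by -0.62 ± 0.43 with the combination, 0.04 ± 0.43 with lenvatinib and 0.75 ± 0.43 with anti-PD1 (SE). The list's median difference was -0.30 with the combination, -0.21 with lenvatinib and 0.26 with anti-PD1, and 7 of 9 genes lay below placebo with the combination, 6 with lenvatinib and 1 with anti-PD1. The share of all probe sets below placebo was 50.7%, 50.9% and 50.4%. Of the 8 matched transcription factors, 6 lay above placebo with the combination (median 0.22), 5 with lenvatinib (median 0.10) and 4 with anti-PD1 (median 0.02). Nfatc4 had the smallest F test p of this list. It differed from placebo by -0.39 ± 0.19 with the combination, -0.44 ± 0.19 with lenvatinib and -0.07 ± 0.19 with anti-PD1 (SE). Nab2, with the next smallest, differed by 0.45 ± 0.34, 0.53 ± 0.34 and -0.12 ± 0.34 in the same order (SE). Neither the growth signal genes nor any of these transcription factors, among them the myelin regulator Egr2 (19 arrays above the control 95th percentile), passed the adjusted threshold.

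All 11 matched axon genes, including the neurofilament genes Nefl and Nefh and the growth cone gene Stmn2, stayed under the control 95th percentile on every array. The only axon gene with an unadjusted p under 0.05 against placebo was Stmn2, at 0.53 ± 0.24 (SE) with the combination. In that contrast 1.01% of all probe sets were higher at that level. Of 8 oligodendrocyte genes 1, Myrf, exceeded the control 95th percentile, on 1 array, and of 8 melanocyte genes 1, Mitf, on 6 arrays. The median differences for axon, oligodendrocyte and melanocyte genes in combination minus placebo tumours were -0.09, 0.06 and 0.01.

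Pairs of the 5 genes were then compared across the 21 tumours, with permutation tests and Benjamini-Hochberg adjustment over 10 pairs. Sox10 and Cdh19 varied together (Pearson's r = 0.79, adjusted permutation p = 0.0002, Spearman's rho = 0.68, adjusted permutation p = 0.0063), also on deviations from arm means (r = 0.73), without anti-PD1 mice 2 and 4 (r = 0.73, adjusted permutation p = 0.0055), and within the 15 arrays with dimmer and the 6 with brighter hybridization controls (r = 0.86 and 0.55). Mbp and Cdh19 had r = 0.76 and rho = 0.67 (adjusted permutation p = 0.0005 and 0.0063; r = 0.80 and 0.73 within the array groups of 15 and 6). Mbp and Sox10 had r = 0.60 and rho = 0.56 (adjusted permutation p = 0.0152 and 0.0311; r = 0.59 and 0.71 in those groups). On deviations from arm means, Mbp had r = 0.80 with Cdh19 and 0.545 with Sox10 (adjusted permutation p = 0.0003 and 0.0312). Without placebo mouse 1 and anti-PD1 mouse 2, both r of Mbp were smaller, 0.49 with Cdh19 and 0.35 with Sox10. Neither then passed the adjustment (adjusted permutation p = 0.161 and 0.336).

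The 7 pairs holding Mal or Ngfr had r between -0.31 and 0.05, none passing the adjustment, so 3 of 10 pairs passed and 1, Sox10 with Cdh19, also without the 2 farthest mice. Mal with Sox10 had rho = -0.49 (adjusted permutation p = 0.063), with r of -0.13 and -0.81 in the array groups of 15 and 6.

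**Figure D3:**
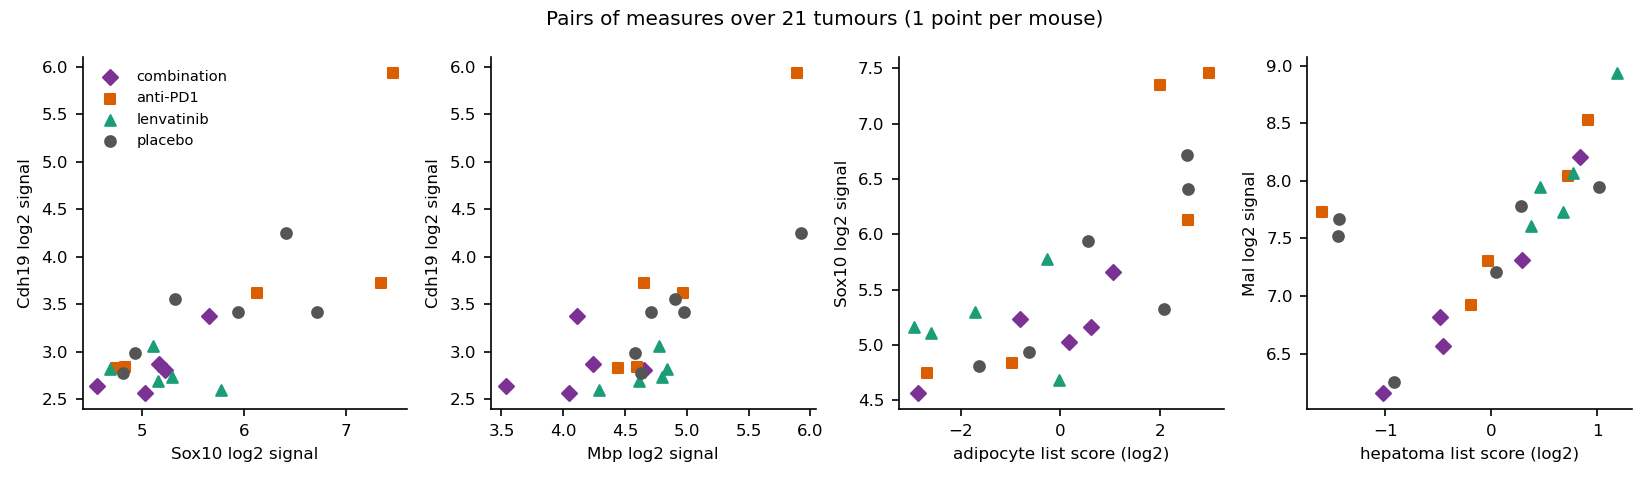
Pairs of measures over 21 tumours, 1 point per mouse, marked by arm, on log2 axes: Cdh19 against Sox10, Cdh19 against Mbp, Sox10 against the adipocyte list score and Mal against the hepatoma list score. Anti-PD1 mouse 2 and placebo mouse 1 lead the Cdh19 panels, and in the Mal panel 3 tumours with a low hepatoma score (anti-PD1 mouse 2 and placebo mice 1 and 6) lie off the line of the others.

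Each gene was also set against the scores of the 15 other lists, a score being the mean over a list's genes of the log2 deviation from the gene's mean, in 75 relations. Both r and rho passed the adjustment for 7 lists with Sox10, 7 with Cdh19, 5 with Mal, 4 with Mbp and 0 with Ngfr. Without the 2 mice farthest from the gene's median, r still passed for 5 lists with Sox10, 5 with Cdh19 and 0 with Mal or Mbp. Sox10 varied with the growth signal list (r = 0.81, rho = 0.64, adjusted permutation p = 0.00175 and 0.011; r = 0.63 without anti-PD1 mice 2 and 4, 0.88 and 0.52 in the array groups of 15 and 6) and with the adipocyte list (r = 0.77, rho = 0.77, adjusted permutation p = 0.000937 and 0.00112; r = 0.75 without anti-PD1 mice 2 and 4, 0.78 and 0.79 in the array groups of 15 and 6) and with the immature Schwann list (r = 0.67, rho = 0.65, adjusted permutation p = 0.00607 and 0.0106; r = 0.69 without those 2 mice, 0.73 and 0.61 in the array groups). Its relation to the melanocyte list, of another cell type that expresses Sox10, had the highest rho of its lists (r = 0.63, rho = 0.77, adjusted permutation p = 0.0103 and 0.00112), with r = 0.75 without those 2 mice (adjusted permutation p = 0.00325) and 0.63 and 0.74 in the array groups. The fibroblast list also passed (r = 0.62, rho = 0.69, adjusted permutation p = 0.0114 and 0.00436; r = 0.63 without those 2 mice, 0.65 and 0.55 in the array groups). The keratinocyte list (r = 0.70, rho = 0.72, adjusted permutation p = 0.00508 and 0.00337) passed over all mice but not without those 2 (r = 0.57, adjusted permutation p = 0.0538), and had r of 0.88 and 0.11 in the array groups. Sox10 ran against the hepatoma list over all mice (r = -0.59, rho = -0.645, adjusted permutation p = 0.0191 and 0.011). That list did not pass without those 2 (r = -0.57, adjusted permutation p = 0.0538), and had r of -0.63 and -0.49 in the array groups.

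Cdh19 followed the growth signal list (r = 0.86, rho = 0.76, adjusted permutation p = 0.000375 and 0.00139; r = 0.76 without 2 mice, 0.87 and 0.73 in the array groups), the adipocyte list (r = 0.70, rho = 0.76, adjusted permutation p = 0.000375 and 0.00112; r = 0.76 without 2 mice, 0.73 and 0.91 in the array groups) and the fibroblast list (r = 0.62, rho = 0.78, adjusted permutation p = 0.00506 and 0.00112; r = 0.76 without 2 mice, 0.58 and 0.97 in the array groups). Its r with the melanocyte list was 0.51 and its rho 0.62 (adjusted permutation p = 0.027 and 0.0129; r = 0.63 without 2 mice, 0.55 and 0.88 in the array groups). The immature Schwann list also passed with Cdh19 (r = 0.665, rho = 0.77, adjusted permutation p = 0.00135 and 0.00112). Its r was 0.75 without 2 mice (adjusted permutation p = 0.00325), and 0.71 and 0.85 in the array groups. The mice left out for Cdh19 were anti-PD1 mouse 2 and placebo mouse 1. These 2 had the highest endothelial scores (1.77 and 1.10) and the lowest hepatoma scores (-1.60 and -1.445). Their skeletal muscle scores were 3.22 and 4.155. Combination mouse 2 (4.83), placebo mouse 5 (4.01) and lenvatinib mouse 4 (3.92) also scored high, with Cdh19 at 2.87, 2.99 and 2.82. The skeletal muscle list passed with none of the 5 genes. The part of these tissues in the values of the 2 mice was not tested. Over all mice, Cdh19 also ran with the endothelial list (r = 0.785, rho = 0.62, adjusted permutation p = 0.000937 and 0.0129). It ran against the hepatoma list (r = -0.67, rho = -0.63, adjusted permutation p = 0.00279 and 0.0115). Neither the endothelial nor the hepatoma list passed without anti-PD1 mouse 2 and placebo mouse 1 (r = 0.53 and -0.485, adjusted permutation p = 0.0836 and 0.125). The peripheral myelin list passed with none of the 5. With Mbp its r was 0.50, with Sox10 0.37, with Mal -0.22, with Cdh19 0.47 and with Ngfr 0.20. Nor did the transcription factor list pass with any. Its r was -0.24 with Mbp, -0.35 with Sox10, -0.25 with Mal, -0.32 with Cdh19 and -0.25 with Ngfr. On the 15 arrays with dimmer hybridization controls its r was -0.71 with Mbp, -0.58 with Sox10, -0.43 with Mal, -0.76 with Cdh19 and 0.51 with Ngfr.

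Mal ran with the hepatoma list (r = 0.62, rho = 0.77, adjusted permutation p = 0.0114 and 0.00112; r = 0.57 and 0.72 in the array groups of 15 and 6), and against the fibroblast, immature Schwann, melanocyte and T cell lists (r = -0.64, -0.63, -0.61 and -0.58). In the array groups, r was -0.59 and -0.74 for fibroblast, -0.405 and -0.94 for immature Schwann, -0.68 and -0.66 for melanocyte. For T cell it was -0.75 and -0.25. On deviations from arm means, T cell did not pass (r = -0.47, adjusted permutation p = 0.0773), while hepatoma, fibroblast, immature Schwann and melanocyte did. Without combination mouse 5 and placebo mouse 4, none of these 5 lists passed the adjustment, with r of 0.54 for the hepatoma list (adjusted permutation p = 0.0704), -0.57 for fibroblast, -0.56 for immature Schwann and -0.57 for T cell (adjusted permutation p = 0.0538 for each) and -0.50 for melanocyte (adjusted permutation p = 0.115). Tumour by tumour, the hepatoma score was -0.19, -1.60, 0.91, -0.03 and 0.73 in anti-PD1 mice 1 to 5, and Mal also peaked in mouse 3 of that arm. Mouse 2, with the arm's lowest score, had Mal at 7.73, above mice 1 (6.92) and 4 (7.30). Placebo mice 1 and 6 likewise had low scores (-1.445 and -1.436) with Mal at 7.52 and 7.67. Ngfr had 1 list with r past the adjustment, axon (r = 0.58, adjusted permutation p = 0.0223), but not rho (0.35, adjusted permutation p = 0.243), and without 2 mice its r was 0.23.

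**Figure D4:**
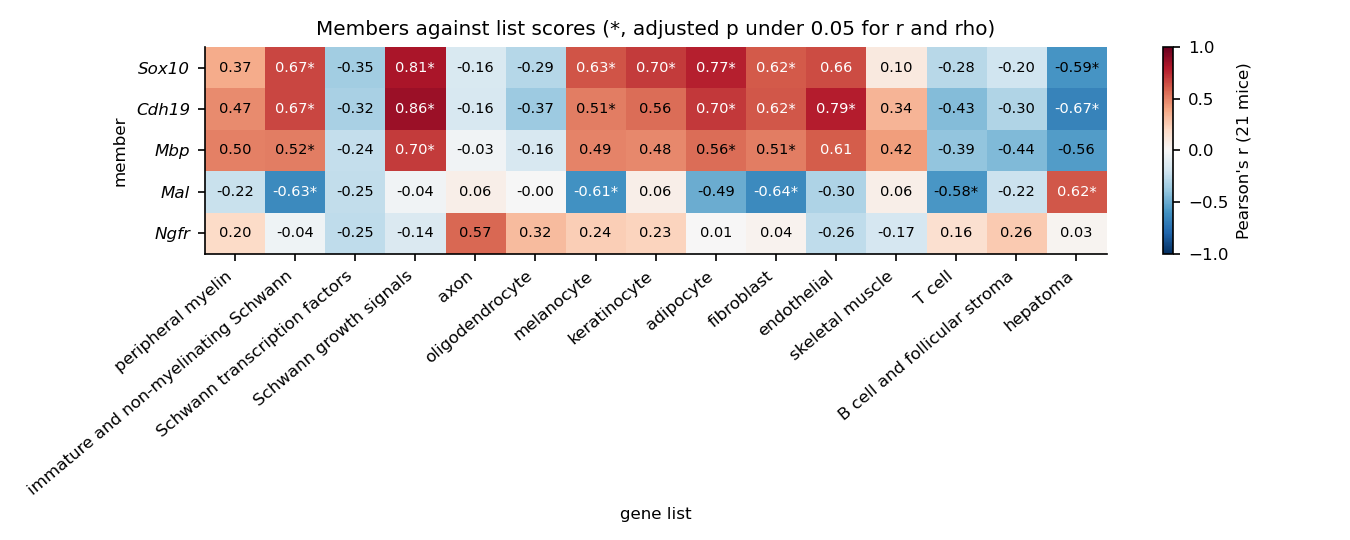
Pearson's r over 21 mice between each gene (rows) and each list score (columns), from blue (-1) to red (1), with an asterisk where both r and rho had an adjusted permutation p under 0.05. The 7 asterisks of Sox10 and 7 of Cdh19 fall on the same columns except keratinocyte and endothelial, Mal has the opposite sign in the immature Schwann, melanocyte, fibroblast and hepatoma columns, and Ngfr has 0.

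The 5 genes most alike each member were sought among 3785 bright probe sets, by r over the 21 mice. Around Sox10 lay Prkar2b (r = 0.84), a regulatory subunit of protein kinase A, Agpat2 (0.83), which makes phosphatidic acid, and Pnpla2 (0.83), a triglyceride lipase. Around Cdh19 lay Hibadh (r = 0.92), of valine breakdown, Sort1 (0.90) and the basement membrane gene Nid1 (0.90). Around Mbp lay Echs1 (r = 0.89, rho 0.67), an enzyme of fatty acid oxidation, with Sort1 and Hibadh again (0.79 each). Around Mal lay Rcan2 (r = 0.87), a regulator of calcineurin, Tmem98 (0.86) and Cfap298 (0.86, rho 0.91). Around Ngfr lay Lce1a2 (r = 0.68), of the cornified skin layer, Krtap4-2 (0.68) and Med9 (0.66). These values were the highest of a search and carry no test.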

How the data were processed

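RNA of 21 tumours was hybridised to 1-colour Affymetrix arrays, 1 array per mouse. The authors deposited log2 signals made with RMA in oligo, per the submitters' processing notes, which name no version. Of 29129 rows, 6923 controls were set aside and 22206 were tested; 19572 probe sets had 1 symbol, 2634 none and 0 several. Arms were taken from the labels. Linear models (limma 3.58.1, statmod 1.5.0, R 4.3.3) had 4 arm means, empirical Bayes variances and Benjamini-Hochberg adjustment over all tested probe sets, at 0.05. The script was tested on simulated data. Correlations used 100000 permutations (scipy 1.17.1), smallest possible p 1e-05. Alternatives included array weights, cyclic loess, a 40th percentile filter, hybridization controls, each mouse left out and a mouse-number block.

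The members and all lists were chosen with earlier results of these data known. The members are named in every comparison. From each Schwann, axon and glial list the rule took up to 4 genes with the smallest F test p and the 2 brightest, and the text names only part of these. Other tissues are given as gene counts, median differences, mean levels and scores, with few genes named. The 5 most alike genes were taken among probe sets whose mean exceeded the 95th percentile of the mean negative controls, leaving out provisional names. Mouse numbers were read as labels and not taken as pairs. Of 30 same-numbered pairs of deviations, 15 correlated above 0.1 (median 0.10, -0.64 to 0.56). No value for differently numbered pairs was set beside these, so they cannot show whether the numbers mark a block. The list relations were chosen after seeing the data. The number of arrays limits the precision.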

Additional observations from a re-analysis of the deposited data

Results flagged for a closer look

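Each gene and arm was screened for 1 tumour far from the rest of its arm, 20 groups in all, of which chance would single out about 1 in 20. Cdh19 in anti-PD1 mouse 2 stood at 5.94, with the next tumour of that arm at 3.73, a gap of 0.711 of the arm's range. Mbp in placebo mouse 1 stood at 5.92, with the next at 4.98 (0.704 of the range). Ngfr in anti-PD1 mouse 1 stood at 6.34, with the next at 5.17 (0.758 of the range), on an array with bright hybridization controls.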

How the results depend on the processing

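The 45 member results were recomputed under 1402 alternatives. In 1353 the direction and side of the threshold held, 47 turned the direction (37 of them with 1 mouse left out), and 2 passed the threshold, both for Mal with array weights; no main difference above 0.49 in size turned. The cause of these shifts was not tested. Other than with 1 mouse left out, the direction turned for Ngfr in lenvatinib minus placebo (array weights -0.071, without the 6 bright arrays -0.052), Cdh19 in anti-PD1 minus placebo (array weights -0.0051), Sox10 in combination minus lenvatinib (array weights 0.30, without the 6 bright arrays 0.29), Ngfr in combination minus lenvatinib (cyclic loess -0.013), the interactions of Sox10 (array weights 0.24) and Cdh19 (array weights 0.13, without anti-PD1 mouse 2 and placebo mouse 1, chosen after seeing the data, 0.052), and Mal for lenvatinib given (mouse-number block 0.011). With 1 mouse left out, differences that turned ranged from -0.17 to 0.090 (Mal, lenvatinib given), -0.062 to 0.15 (Ngfr, combination minus lenvatinib), -0.047 to 0.13 (Ngfr, combination minus placebo), -0.13 to 0.12 (Ngfr, lenvatinib minus placebo), -0.29 to 0.15 (Mbp, anti-PD1 minus placebo), -0.21 to 0.068 (Sox10, combination minus lenvatinib), -0.15 to 0.63 (Cdh19, anti-PD1 minus placebo), -0.058 to 0.14 (Cdh19, combination minus lenvatinib), -0.56 to 0.22 (Cdh19, interaction) and -0.039 to 0.35 (Cdh19, antibody given). Probe sets called, 0 throughout by default, numbered 142 (F test), 707 (combination minus lenvatinib), 504 (combination minus anti-PD1) and 1691 (interaction) with array weights, and 233 (combination minus anti-PD1) without the bright arrays. With 1 mouse left out they were 0 to 1, 0 to 338 and 0 to 320 for the last 3 contrasts, highest without combination mouse 1; none of the 5 genes passed there. The mouse-number block called 0 in every comparison and gave -0.85 for Mbp in combination minus placebo. Above the 75th percentile of the controls were Mbp on 2, Sox10 on 9, Mal on 21, Cdh19 on 1 and Ngfr on 10 arrays, and above the 99th all 5 on 0. Without the 2 farthest mice, r of Mbp was 0.354 with Sox10 and 0.485 with Cdh19, and r with Ngfr turned for Mbp (0.065), Sox10 (0.239), Mal (-0.042) and Cdh19 (0.089). Signals under the controls' 95th percentile limit all 5 genes: Mal exceeded it on 12 of 21 arrays and on 1 of 5 in the combination arm, the others on 0.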
